A study of Mus musculus with 18 samples.

Results

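The comparison described here spans the single day between D7 and D8 of a mouse embryonic stem cell culture on its way to heart muscle. On that day the name of the stage passed from cardiac progenitor cells to immature cardiomyocytes. The comparison holds 6 of the 18 poly(A) RNA libraries of the series, 3 of D7 and 3 of D8, and covers the 13116 of 23337 gene symbols with enough counts to be tested. All cells were untreated and of 1 line, TBX5-FTA, of the strain A2Lox.cre, which was built to receive transgenes. The 2 groups thus share line, strain and lack of treatment and differ in the day of harvest. With 1 line, differences between lines cannot be seen here. The other libraries, of D5, D6, D10 and D15, entered the estimate of the spread and give the levels before and after. The series asks how Hedgehog signals, acting through GLI factors, bear on when cells differentiate.

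The labels number the replicates of a day without saying that each was its own culture. The p-values therefore reflect variation among libraries, which may be technical. Total counts were 6339689 to 6417737 per library at D7 and 5583288 to 6769054 at D8. CPM are counts per 1000000 of a library. Pairs of libraries stood on average 0.395 apart within D7, 0.408 within D8 and 0.607 between the days (root mean square over genes, log2 CPM). Cultures of this kind hold several cell types, and in such bulk RNA fewer cells of a type and less RNA per cell cannot be told apart. Markers of heart muscle, fibroblasts, the epicardium, endothelium and smooth muscle were all present on both days. Of the skeletal muscle markers examined, Myod1, Myog and Myf5 had no count on either day, and Pax3 had 9 counts at D7 and 2 at D8. The summed level of the cardiomyocyte markers was 675 to 1740 CPM in the D7 libraries and 1160 to 3130 in the D8 libraries, so the named stages overlapped in these markers.

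Embryonic heart cells at this stage leave a cycling progenitor state and assemble sarcomeres, the ordered filaments of myosin and actin that contract. Around them, mesenchymal cells lay down collagen matrix. A dividing cell also needs amino acids and sterols. When amino acids run short, the transcription factor ATF4 switches on genes of amino acid import and synthesis through an element that it binds with C/EBP proteins, and when sterols run short the factor SREBP2 switches on cholesterol synthesis. Glucose acts on another switch, in which the factors MondoA and ChREBP bind paired E-boxes and switch on Txnip and Arrdc4, members of the arrestin-domain family that limit glucose uptake.

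Asns was among the 12 largest falls named by rule and Txnip among the 12 largest rises. Both carry textbook elements of these switches in the 250 bases before their start. Slc7a11, Chac1, Nupr1 and Hmgcs1 carry them too but were not among those largest changes. The stretches are shown because known targets of the switches were among the largest falls and rises of the day. The sequences are of RefSeq, build GRCm38.p6, 5′ to 3′ on the strand of the gene, with the match in capitals. Both strands were searched, and a match is a description of the letters.
Asns (chr6:7693210-7693262, minus strand): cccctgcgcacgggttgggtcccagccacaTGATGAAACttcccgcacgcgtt
Slc7a11 (chr3:50443623-50443709, minus strand): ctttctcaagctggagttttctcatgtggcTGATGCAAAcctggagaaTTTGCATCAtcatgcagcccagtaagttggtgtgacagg
Chac1 (chr2:119351018-119351086, plus strand): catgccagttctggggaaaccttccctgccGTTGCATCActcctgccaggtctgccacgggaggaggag
Nupr1 (chr7:126625543-126625611, minus strand): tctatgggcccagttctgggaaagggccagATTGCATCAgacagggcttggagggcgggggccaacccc
Txnip (chr3:96557842-96557918, plus strand): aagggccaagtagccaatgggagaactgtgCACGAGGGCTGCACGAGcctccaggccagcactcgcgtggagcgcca
Hmgcs1 (chr13:119690184-119690252, plus strand): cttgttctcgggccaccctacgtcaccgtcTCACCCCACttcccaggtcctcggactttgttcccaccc
In the first 4 the capitals mark the C/EBP-ATF response element TGATGNAAN, which Slc7a11 holds on both strands. It was found for 4 of the 15 genes of the amino acid and ATF4 list that had a promoter in the table (18 listed), and for 3.89% of all 27025 genes with one. For Txnip the capitals mark the carbohydrate response element, a pair of CACGNG boxes 5 bases apart, found for 14 of the 27025 genes. For Hmgcs1 they mark the sterol regulatory element TCACCCCAC, found for 1 of 10 genes of the cholesterol list (17 listed) and for 0.555% of all. The paired boxes were not found in the window of Arrdc4, nor for any of 19 genes of the glycolysis list (20 listed). Slc7a3, Trib3, Cth, Psat1, Slc7a5 and Mthfd2 were also among the 12 largest falls. They had no match to the C/EBP-ATF element or no promoter in the table.

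Between D7 and D8, 3168 of the 13116 genes (24.2%) changed at an adjusted p under 0.05 by edgeR's quasi-likelihood test with Benjamini-Hochberg adjustment. Of these, 1648 (12.6% of the genes tested) rose and 1520 (11.6%) fell, and the at least 2-fold rises, 576 (4.39%), outnumbered at least 2-fold falls, 133 (1.01%). The shares of 12.6% and 11.6% are the background for the counts of every list below. The median log2 fold change of all genes was 0.00, with quartiles of -0.19 and 0.25. Levels below are CPM in the 3 libraries of a day, which are called a, b and c in the order of the deposited columns. A result given without a library, or without one library or another, comes from fits that leave out 1 library at a time. Log2 fold changes are D8 against D7 with their SE. Genes whose exons share at least 10% of their length with a neighbour were Txnip, Igf2, Hmgcs1, Slc6a9, Ccdc3, Tshz2, Hoxb2, Cdkn1c, Rbl2, Rb1, Tagln, Tbx18, Lef1, Spry1, Rarb, Cryab, Asph, Mb, Ankrd37 and Myh7. Whether the counting used strand is not given, so their counts may hold reads of the neighbour. For Igf2, Pgam1, Ccnb1, Krt8 and Myh6 under 80% of the 50-base stretches are unique among transcripts, so their values are uncertain as well. Clca1, Aldh1a2, Hcn4 and Pdk1 are also older symbols of other genes. Where none of a list's genes rose or none fell below, limma-voom and DESeq2 called none either, and none reached an unadjusted p under 0.05 in edgeR's test, except for 1 gene with a fall each in the fatty acid oxidation, TGF-beta and immediate early lists.

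**Figure D1:**
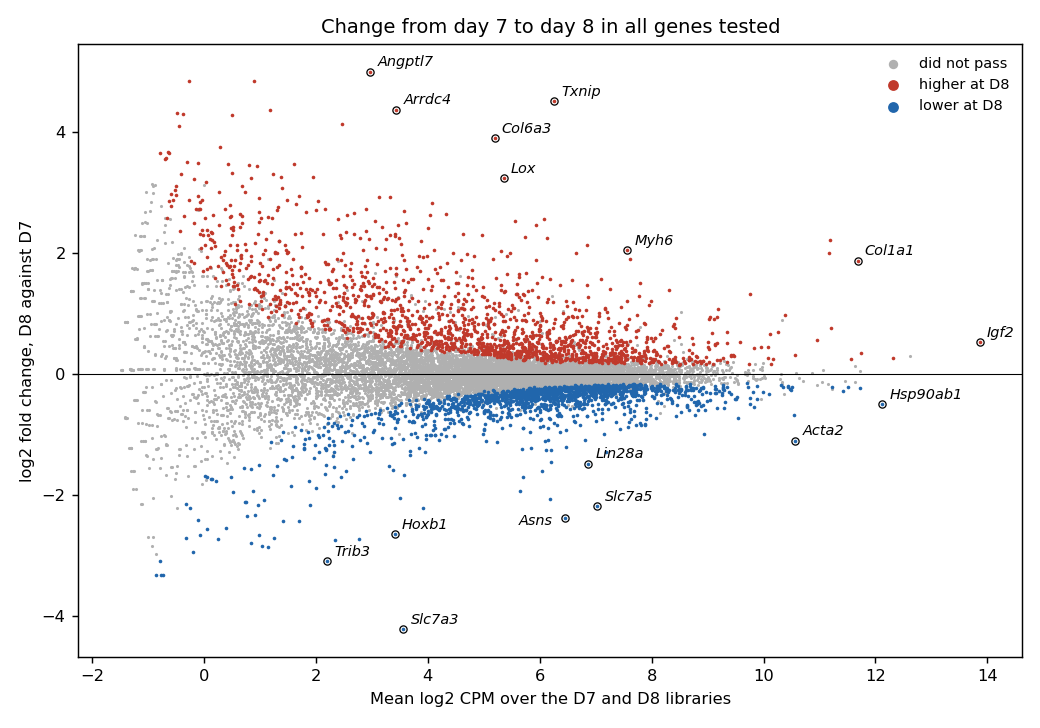
Log2 fold change from D7 to D8 (vertical) against mean log2 CPM over the 6 libraries (horizontal), 1 point per gene tested that had counts on both days. Red points rose and blue points fell at an adjusted p under 0.05; the circled genes run from Slc7a3 at -4.21 to Angptl7 at 4.99.

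Genes of amino acid import and synthesis fell together, with the lowest median of the 43 lists examined. Of the 18 genes of the amino acid and ATF4 list, all tested, 15 (83.3%) fell, 1 rose and 2 did not pass, with a median log2 fold change of -1.99. Slc7a3, a carrier of the cationic amino acids arginine and lysine (mm10 chromosome X, 101079210 to 101086020), had 38.9, 53.2 and 53 CPM at D7 and 2.32, 2.32 and 3.23 CPM at D8, the largest fall of the comparison by the naming rule (log2 fold change -4.21 ± 0.20, adjusted p = 1.40e-15). Asns, which makes asparagine (mm10 chromosome 6, 7675169 to 7693254), had 172, 201 and 226 CPM at D7 and 35.9, 38.7 and 41.3 CPM at D8. Every D8 library of Asns lay below every D7 library, which the naming rule required, and the log2 fold change was -2.37 ± 0.13, adjusted p = 4.15e-11.

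The serine and one-carbon route fell with it. Psat1, the aminotransferase of serine synthesis (mm10 chromosome 19, 15904678 to 15947337), had 127, 156 and 160.1 CPM at D7 and 30.2, 43.1 and 33.4 CPM at D8 (log2 fold change -2.06 ± 0.13, adjusted p = 2.57e-10). The other enzymes of that route fell as well, Phgdh from 54.1 ± 3.81 to 29.1 ± 1.90 CPM (-0.89, adjusted p = 1.53e-06) and Psph from 55.1 ± 2.58 to 25.3 ± 0.995 CPM (-1.12, adjusted p = 2.31e-08). Shmt2 and Mthfd2, the mitochondrial enzymes that take 1-carbon units from serine, went from 113 ± 17.9 to 47.6 ± 3.39 CPM and from 97.3 ± 11.5 to 25.6 ± 4.77 CPM (log2 fold change -1.25 ± 0.10, adjusted p = 9.07e-10, and -1.93 ± 0.16, adjusted p = 2.08e-08). Cth, which makes cysteine from cystathionine, had 13, 19.8 and 17.4 CPM at D7 and 2.03, 1.99 and 3.59 CPM at D8 (log2 fold change -2.73 ± 0.24, adjusted p = 1.08e-09). Slc7a5, the large neutral amino acid carrier that brings in leucine (mm10 chromosome 8, 121881150 to 121907694), had 225, 278 and 339 CPM at D7 and 48.1, 64.4 and 74.9 CPM at D8 (log2 fold change -2.18 ± 0.19, adjusted p = 1.85e-06). The glycine carrier gene Slc6a9, which stood outside the list, had 25.2, 30.6 and 40.1 CPM at D7 and 7.55, 5.81 and 7.18 CPM at D8 (log2 fold change -2.21 ± 0.18, adjusted p = 1.60e-10).

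Atf4 itself fell less than most genes of its list. It had 155, 173 and 211 CPM at D7 and 101, 119 and 104 CPM at D8, with no overlap between the days (log2 fold change -0.73 ± 0.13, adjusted p = 6.07e-04). Trib3, a pseudokinase induced by ATF4 that feeds back on it, had 8.49, 11 and 18.3 CPM at D7 and 1.60, 1.66 and 1.08 CPM at D8 (log2 fold change -3.09 ± 0.37, adjusted p = 4.97e-07). Chac1, which degrades glutathione, and Slc7a11, the cystine carrier, were low throughout, at 4.65 CPM or less, and fell (-2.16, adjusted p = 0.00293, and -2.33, adjusted p = 4.41e-04). Nupr1, a stress-induced chromatin protein, fell from 2.26 ± 1.26 to 0.309 ± 0.236 CPM (adjusted p = 3.66e-04). Sesn2, an inhibitor of the growth kinase complex mTORC1, fell (-0.55 ± 0.16, adjusted p = 0.0132) with overlapping libraries. Ddit3, the proapoptotic partner of ATF4, went from 13.4 ± 5.10 to 9.13 ± 2.96 CPM (adjusted p = 0.192) and Aldh18a1, the first enzyme of proline synthesis, from 109 ± 7.40 to 101 ± 11.2 CPM (adjusted p = 0.393), and neither passed. The 1 gene that rose was Ddit4, an mTORC1 inhibitor also induced by hypoxia and glucocorticoids, with 42.4, 34.6 and 35.3 CPM at D7 and 154, 79.99 and 84.9 CPM at D8 (log2 fold change 1.51 ± 0.27, adjusted p = 0.00119).

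Asns and Slc7a5 had not been falling steadily before D7. Mean Asns was 185 ± 5.87 CPM at D5, 92.8 ± 9.11 at D6, 199.7 ± 27.3 at D7, 38.6 ± 2.72 at D8, 14.5 ± 2.77 at D10 and 43.1 ± 9.20 at D15. Slc7a5 had 175, 87.8, 281, 62.4, 32.5 and 124 CPM on the same days. D6 was thus below both D5 and D7 for both genes, and D7 had the highest mean of the 6 days, which for Asns was above D5 by less than the SD at D7. From D5 to D6, a step that shares no library with this one and at which 34.6% of genes changed, Asns also fell (-0.99 ± 0.12). Its change from D7 to D8 minus its change from D5 to D6 was -1.38 ± 0.17, adjusted p = 6.88e-06 by edgeR, so the later fall was the larger. For Slc7a3 this difference was -2.77 ± 0.27, adjusted p = 1.07e-08.

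Txnip and Arrdc4 were, with Angptl7, the largest rises of the day by the naming rule. Txnip, which restrains glucose uptake and binds thioredoxin (mm10 chromosome 3, 96557957 to 96561883), had 18.3, 19.1 and 10.9 CPM at D7 and 369, 383 and 347 CPM at D8 (log2 fold change 4.50 ± 0.20, adjusted p = 1.88e-09). Arrdc4, its arrestin-domain relative, had 1.79, 1.23 and 4.03 CPM at D7 and 46.6, 54.9 and 44.2 CPM at D8 (log2 fold change 4.36 ± 0.26, adjusted p = 1.60e-10). In both genes the 3 D8 libraries lay close together, while the D7 libraries were low and spread further in proportion. The days did not overlap, which the naming rule required. Over the 6 days the means of Txnip were 8.79, 115, 16.1, 366, 743 and 1139 CPM, and those of Arrdc4 1.95, 17.8, 2.35, 48.6, 62 and 54 CPM. Both were high at D6 and low again at D7, where Asns and Slc7a5 were low at D6 and high at D7. The difference between their rises from D7 to D8 and from D5 to D6 did not pass edgeR's test (Txnip 0.80 ± 0.33, adjusted p = 0.108, and Arrdc4 1.19 ± 0.48, adjusted p = 0.089).

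**Figure D2:**
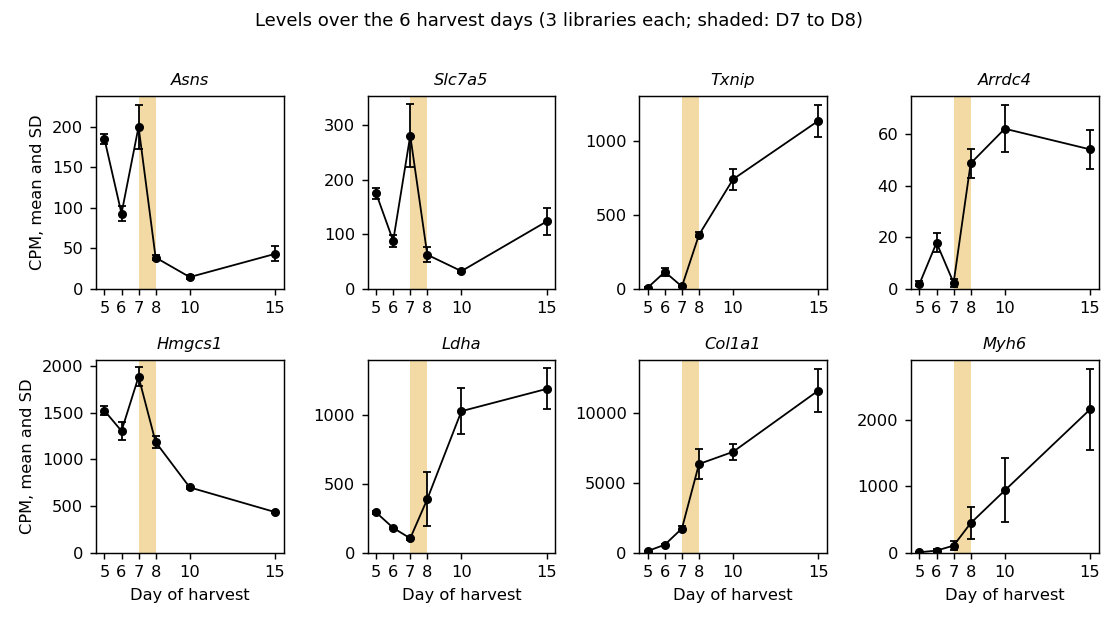
Mean CPM and SD over 3 libraries (vertical) against day of harvest (horizontal) for 8 genes, with the step from D7 to D8 shaded. Asns and Slc7a5 dip at D6, peak at D7 and drop at D8; Txnip and Arrdc4 are higher at D6 than at D5 and D7 and rise at D8; Col1a1 and Myh6 have higher means at each later day.

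Cholesterol synthesis fell nearly throughout. Of 17 genes 15 (88.2%) fell and none rose by edgeR's test, with a median log2 fold change of -0.57, so the falls were smaller than those of the amino acid genes. Hmgcs1, which makes HMG-CoA (mm10 chromosome 13, 119690379 to 119708260), had 1767, 1915 and 1967 CPM at D7 and 1109, 1212 and 1232 CPM at D8 (log2 fold change -0.67 ± 0.06, adjusted p = 1.36e-09), the largest loss in CPM after those of Hsp90ab1 and Acta2. Lss, the cyclase that closes the sterol rings, had 317, 377 and 355 CPM at D7 and 203, 196 and 235 CPM at D8 (log2 fold change -0.73 ± 0.09, adjusted p = 5.96e-07). In both genes every D8 library was below every D7 library.

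The sterol sensors fell in the same range. Insig1, which holds SREBP in the endoplasmic reticulum, went from 227 ± 11 to 144 ± 7.04 CPM (-0.66, adjusted p = 1.09e-07). Srebf2, the gene of SREBP2, went from 627 ± 51.4 to 502 ± 10.9 CPM (-0.32, adjusted p = 2.89e-04). Sqle, which oxidises squalene, fell by 0.59 on the log2 scale (adjusted p = 4.43e-07). Idi1, the isopentenyl diphosphate isomerase, did not pass (-0.47 ± 0.18, adjusted p = 0.0514). Abca1, the cholesterol exporter that is switched on by sterol-sensing LXR receptors and stood outside the list, had 4.32, 3.24 and 3.10 CPM at D7 and 35.7, 26.7 and 17.6 CPM at D8 and rose (log2 fold change 2.91 ± 0.37, adjusted p = 5.13e-05).

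**Figure D3:**
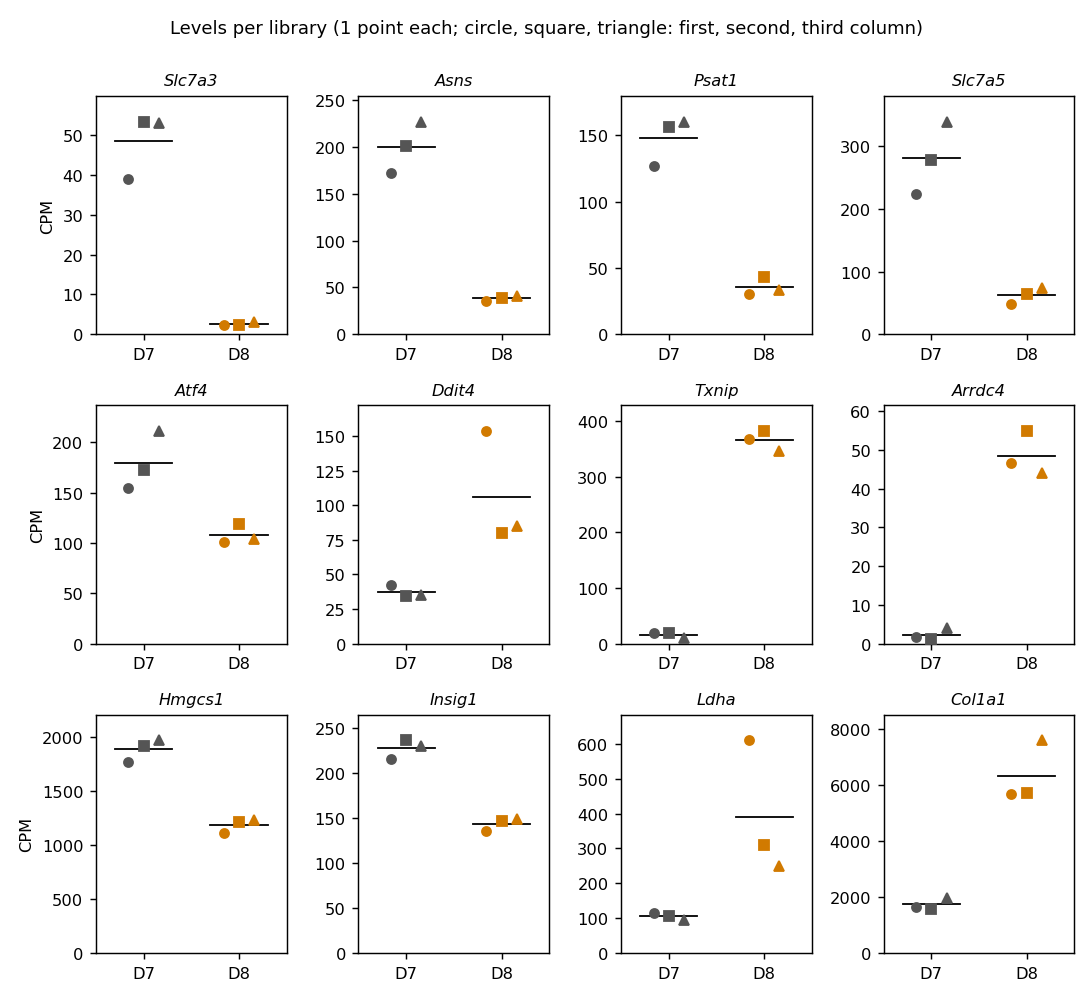
CPM (vertical, from 0) in each of the 3 D7 and 3 D8 libraries for 12 genes; circle, square and triangle are the libraries a, b and c of a day and the line is the mean. Slc7a3, Asns, Psat1, Slc7a5, Atf4, Hmgcs1 and Insig1 are lower in every D8 library, and the other 5 genes higher in every one.

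Genes of collagen matrix gave the largest gains in CPM after Igf2, a measure that weighs abundant and long transcripts most. In the fibroblast and matrix list 14 of 17 genes (82.4%) rose and none fell by edgeR's test, with a median of 1.38 over the 16 with a count. Col1a1, a chain of type I collagen (mm10 chromosome 11, 94936224 to 94953042), had 1651, 1575 and 1968 CPM at D7 and 5678, 5706 and 7596 CPM at D8 (log2 fold change 1.87 ± 0.14, adjusted p = 3.73e-07). Its partner chain Col1a2 had 1100.4, 1032 and 1357 CPM at D7 and 4299, 3886 and 5818 CPM at D8 (log2 fold change 2.005 ± 0.17, adjusted p = 2.17e-06). Col3a1, of the reticular type III collagen, had 1078, 959 and 1264 CPM at D7 and 4777, 4222 and 6238 CPM at D8 (log2 fold change 2.21 ± 0.16, adjusted p = 4.02e-07). For the 3 collagens the days did not overlap, and D8c was the highest.

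Other matrix genes rose from lower levels. Col6a3, a chain of the beaded-filament type VI collagen (mm10 chromosome 1, 90765923 to 90843971), had 9.38, 8.33 and 10.5 CPM at D7 and 135, 118 and 167 CPM at D8 (log2 fold change 3.89 ± 0.17, adjusted p = 4.09e-11), while its partners Col6a1 and Col6a2 rose by 0.97 ± 0.13 and 1.27 ± 0.11. Lox, the oxidase that cross-links collagen and elastin, had 15.6, 11 and 13.2 CPM at D7 and 117, 122 and 135 CPM at D8 (log2 fold change 3.23 ± 0.15, adjusted p = 3.59e-11). The small proteoglycan genes Dcn, Lum and Bgn rose from 28.9 ± 4.57 to 80.9 ± 18.4 CPM (1.48, adjusted p = 8.99e-05), 38.5 ± 3.11 to 118 ± 48.9 CPM (1.61, adjusted p = 7.84e-04) and 2.69 ± 0.776 to 9.91 ± 2.15 CPM (1.89, adjusted p = 4.90e-08). Fbln2, a glycoprotein of elastic fibres and developing valves, had 158, 159.5 and 185 CPM at D7 and 402, 343 and 406 CPM at D8 and the smallest p of the list (log2 fold change 1.20 ± 0.08, adjusted p = 7.11e-12). Tcf21, a transcription factor of cardiac fibroblast precursors, went from 4.73 ± 0.628 to 22.9 ± 6.12 CPM (2.28, adjusted p = 1.29e-06), and Pdgfra, a growth factor receptor of mesenchyme, from 225 ± 6.88 to 357 ± 21.8 CPM (0.67, adjusted p = 7.53e-09). Postn (0.89 ± 0.32, adjusted p = 0.0636) and Fn1 (0.29 ± 0.14, adjusted p = 0.152), both matrix proteins of the forming valves, did not pass, and Dpt had no count on either day. The summed level of 6 fibroblast markers was 3390 to 4740 CPM at D7 and 11600 to 16800 at D8.

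Genes of TGF-beta signalling, a pathway that drives matrix production, were raised in 6 of 11 (54.5%) and lowered in none by edgeR's test. Ltbp1, which tethers latent TGF-beta to matrix, had 73.4, 70.7 and 81.4 CPM at D7 and 186, 161 and 199.9 CPM at D8 (log2 fold change 1.28 ± 0.09, adjusted p = 2.20e-10). The induced matrix protein gene Tgfbi rose from 125 ± 9.49 to 288 ± 11 CPM (1.20, adjusted p = 5.67e-08) and the ligand gene Tgfb3 from 21.7 ± 5.21 to 65 ± 9.61 CPM (1.58, adjusted p = 6.11e-06). The receptor gene Tgfbr2 rose by 0.73 ± 0.10. Ctgf, a target shared with YAP, had 51.7, 70.1 and 62.8 CPM at D7 and 32.1, 42.7 and 47.8 CPM at D8 and did not pass (adjusted p = 0.0882).

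The epicardium, the outer cell layer of the heart that gives rise to fibroblasts, showed rises in 6 of 11 genes (54.5%) and falls in 2. Wt1, its zinc finger factor, had 66, 66.8 and 64.2 CPM at D7 and 133, 126 and 118 CPM at D8 (log2 fold change 0.94 ± 0.07, adjusted p = 8.39e-11). Tbx18, a T-box factor of the epicardium and the sinus venosus, had 90.5, 80.5 and 68.4 CPM at D7 and 203, 163 and 133 CPM at D8 (log2 fold change 1.06 ± 0.13, adjusted p = 4.77e-06). Sema3d, Krt19 and Upk3b rose by 1.61 ± 0.18, 0.67 ± 0.09 and 0.38 ± 0.08. Aldh1a2, which makes retinoic acid, had 6 counts at D7 and 48 at D8 and rose (adjusted p = 7.59e-04). The keratin genes Krt8 and Krt18, of simple epithelia, fell (-0.41 ± 0.08, adjusted p = 4.36e-04, and -0.54 ± 0.10, adjusted p = 4.78e-04).

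Smooth muscle actin and transgelin fell while the collagens rose. Acta2, the actin of smooth muscle and of early cardiomyocytes (mm10 chromosome 19, 34241090 to 34255590), had 2033, 2279.7 and 2351 CPM at D7 and 1026, 1063 and 1027 CPM at D8 (log2 fold change -1.10 ± 0.14, adjusted p = 6.51e-05). Tagln, an actin-binding protein, had 592, 708 and 787 CPM at D7 and 311, 339 and 398 CPM at D8 (log2 fold change -0.99 ± 0.15, adjusted p = 2.51e-04). Neither day overlapped the other for the pair. Of the other 6 genes of the smooth muscle list, Mylk rose (0.60 ± 0.21, adjusted p = 0.0401) with overlapping libraries, though not by limma-voom, in the fit of D7 and D8 alone, or without D7b or D7c or D8a, and Myh11, Lmod1, Smtn, Cnn1 and Cald1 did not pass, with log2 fold changes of 0.92, -0.27, -0.06, 0.20 and -0.06. The CArG box, the site of the factor SRF, was searched only in its exact form, CC and GG around 6 bases of A or T. Sites that depart from that form were not counted. The exact form was found for none of the 6 genes of that list with a promoter in the table, against 1.62% of all genes. It was found for 3 of 12 genes of the thin filament list (25%), Actc1, Acta1 and Nebl, and for none of 12 of the fibroblast and matrix list.

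**Figure D4:**
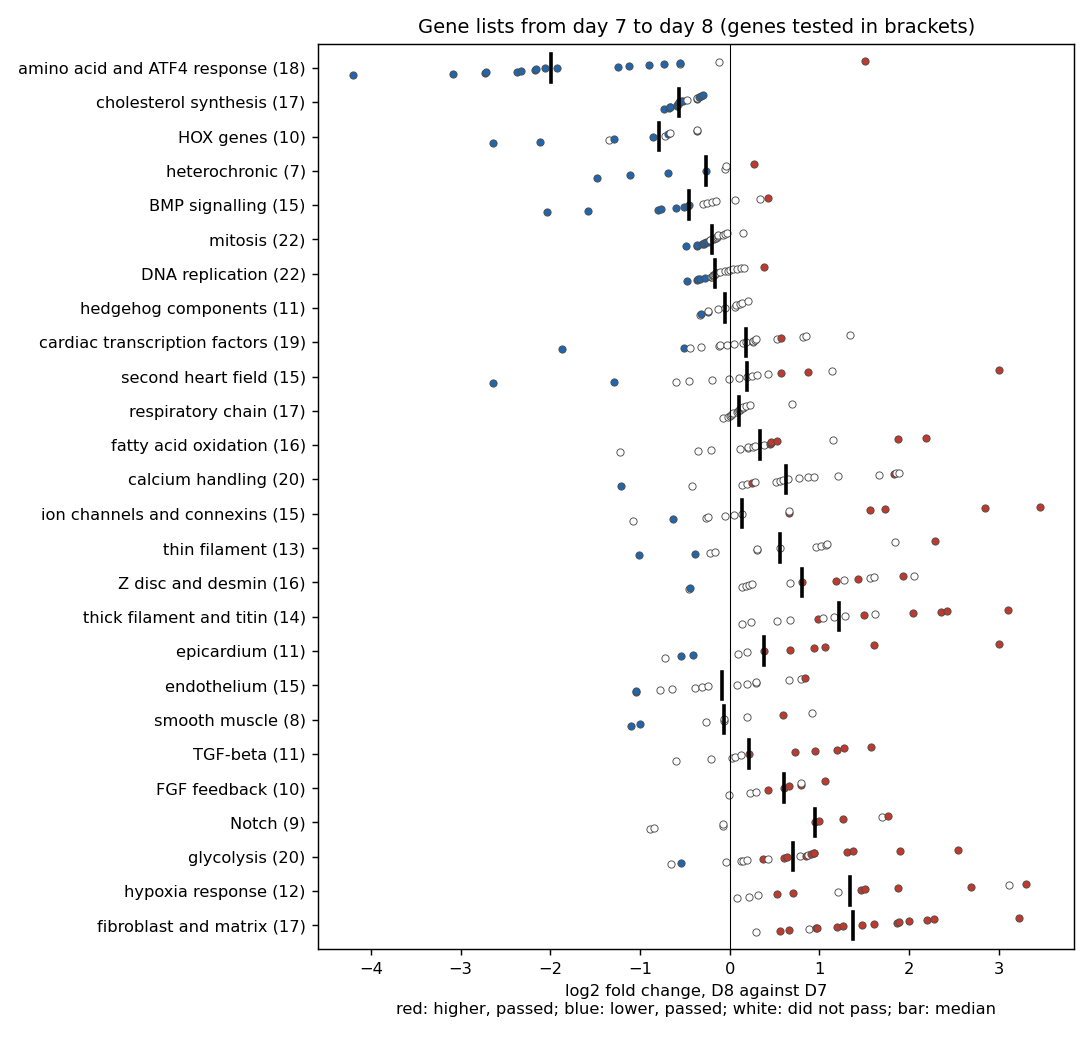
Log2 fold change from D7 to D8 (horizontal) of the tested genes of 26 lists (rows, with the number tested), each point 1 gene with counts on both days. Filled points passed an adjusted p of 0.05, the black bar is the median of the points; the amino acid and matrix lists lie farthest from 0 in opposite directions.

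Enzymes of glycolysis rose together. In this list of 20 genes 11 (55%) rose and 1 fell, with a median log2 fold change of 0.71. Ldha, which makes lactate (mm10 chromosome 7, 46841475 to 46855627), had 114, 106 and 94.7 CPM at D7 and 611, 309 and 249 CPM at D8 (log2 fold change 1.90 ± 0.27, adjusted p = 2.17e-04). Pfkl, a phosphofructokinase of the committed step, had 32.8, 32.2 and 23.3 CPM at D7 and 285, 121 and 108 CPM at D8 (log2 fold change 2.55 ± 0.34, adjusted p = 1.19e-04). Tpi1, the triose phosphate isomerase, had 212, 198 and 193 CPM at D7 and 717, 441 and 410.3 CPM at D8 (log2 fold change 1.38 ± 0.17, adjusted p = 6.34e-05). Library D8a was the highest for each, yet all 3 D8 libraries were above D7. Without that library 7 of the 20 rose. Pkm2 and Aldoa, of lower glycolysis, rose by 0.94 ± 0.15 and 0.91 ± 0.17. Slc2a1, the basal glucose carrier GLUT1, went the other way, with 946, 1057 and 1287 CPM at D7 and 746, 691 and 831 CPM at D8 (log2 fold change -0.54 ± 0.14, adjusted p = 0.0101), and the carrier Slc2a3 did not pass (-0.65 ± 0.24, adjusted p = 0.0645). Gapdh (0.15 ± 0.12, adjusted p = 0.391) and Eno3 (-0.04 ± 0.27, adjusted p = 0.933) did not pass either.

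Genes that answer to low oxygen through HIF factors rose in 7 of 12 (58.3%), and none fell by edgeR's test. Pdk1, which keeps pyruvate out of mitochondria, had 29.8, 30.9 and 35.7 CPM at D7 and 152, 95.4 and 106 CPM at D8 (log2 fold change 1.88 ± 0.22, adjusted p = 3.01e-05). Ndrg1, a stress protein, had 48.8, 44.3 and 58.8 CPM at D7 and 171, 90.8 and 159 CPM at D8 (log2 fold change 1.47 ± 0.23, adjusted p = 4.12e-04). Bnip3, a mitophagy receptor, had 17.9, 11.7 and 12.4 CPM at D7 and 62.9, 30.2 and 25 CPM at D8 (log2 fold change 1.51 ± 0.39, adjusted p = 0.0128). Library D8a was again the highest in each. Egln3, an oxygen-sensing hydroxylase, went from 0.655 ± 0.471 to 6.49 ± 4.07 CPM (adjusted p = 0.0203). P4ha1, a collagen prolyl hydroxylase, went from 166 ± 14.3 to 270.0 ± 43.2 CPM (adjusted p = 1.34e-04). Vegfa, the classic target, had 52, 57.6 and 64.6 CPM at D7 and 104, 51.9 and 44.2 CPM at D8 and did not pass (adjusted p = 0.694). Without that library 5 of the 12 rose, and the median log2 fold change was 0.90 in place of 1.34. The cause of the differences among the D8 libraries was not tested.

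Mitochondrial genes moved less. Fatty acid oxidation had 6 of 16 genes (37.5%) higher and none lower by edgeR's test, against 12.6% and 11.6% over all genes. Cpt1a, the gate for long-chain fatty acids into mitochondria, had 5.96, 6.94 and 7.29 CPM at D7 and 36.6, 28.9 and 26 CPM at D8 (log2 fold change 2.19 ± 0.17, adjusted p = 3.02e-10), while its muscle form Cpt1b did not pass (-1.23 ± 0.49, adjusted p = 0.0657). Hadha, of the trifunctional protein, rose by 0.46 ± 0.08, and Ppargc1a, a coactivator of mitochondrial genes, went from 6.63 ± 3.07 to 24.1 ± 12.2 CPM (1.87, adjusted p = 0.0113). Among 17 respiratory chain genes none passed by edgeR's test, with log2 fold changes from -0.08 (Atp5b) to 0.69 (Cox7a1) in the 16 with counts on both days.

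Sarcomere genes had higher means at D8, but the libraries of a day were far apart. In the thick filament and titin list 6 of 14 genes (42.9%) rose and none fell by edgeR's test, with a median of 1.22. Myh6, the alpha myosin heavy chain of mouse heart (mm10 chromosome 14, 54941921 to 54966927), had 158, 129 and 36.9 CPM at D7 and 645, 507 and 185 CPM at D8 (log2 fold change 2.04 ± 0.60, adjusted p = 0.0253). Myl2, the ventricular regulatory light chain, had 9.08, 5.86 and 0.31 CPM at D7 and 43, 25.4 and 13.1 CPM at D8 (log2 fold change 2.42 ± 0.62, adjusted p = 0.0129). Mybphl, a myosin-binding protein of the atria, had 0.596, 0.309 and 0.31 CPM at D7 and 5.37, 3.15 and 2.15 CPM at D8 (log2 fold change 3.10 ± 0.54, adjusted p = 6.82e-05). Library c was the lowest of its day in all 3 genes at D8, and for Myh6 and Myl2 also at D7. Myh6 did not pass without D7b or D7c, without D8a or D8b, or in the fit of D7 and D8 alone, and Myl2 not without D8a, by limma-voom or in that fit. Mylk3, a cardiac myosin kinase, and Myom2, an M-band protein, rose too (adjusted p = 0.0328 and 0.0312), the latter below 1 CPM.

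Myosin and titin genes with a smaller change in the mean did not pass. Myl3 had 27.1, 15.9 and 5.43 CPM at D7 and 77.4, 52.6 and 17.8 CPM at D8 (log2 fold change 1.62 ± 0.65, adjusted p = 0.0897). Ttn, the spring protein titin, had 71.2, 84.4 and 35.2 CPM at D7 and 152, 172 and 67.9 CPM at D8 (log2 fold change 1.04 ± 0.52, adjusted p = 0.177). Mybpc3, the cardiac myosin-binding protein C, had 79.2, 57.2 and 23.6 CPM at D7 and 192, 138 and 56.9 CPM at D8 (log2 fold change 1.28 ± 0.54, adjusted p = 0.105). In each, D7a was above D8c. Myl7 (0.53 ± 0.51, adjusted p = 0.494), Myl4 (0.24 ± 0.41, adjusted p = 0.716) and Myh7, the beta myosin heavy chain (0.14 ± 0.45, adjusted p = 0.862), were nearer to no change. The number of thick filament genes that rose was 5, 3 and 2 without D7a, D7b and D7c, and 2, 2 and 8 without D8a, D8b and D8c. That the same column positions were low on both days is a feature of the values, and its part in these results was not tested.

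Among 13 thin filament genes 1 (7.69%) rose and 2 (15.4%) fell, against 12.6% and 11.6% over all genes. Tnni3, the adult cardiac inhibitory troponin (mm10 chromosome 7, 4518305 to 4524229), had 8.79, 5.55 and 1.71 CPM at D7 and 44, 25.2 and 8.08 CPM at D8 and rose with overlapping libraries (log2 fold change 2.29 ± 0.72, adjusted p = 0.0362), a call lost by limma-voom, in the fit of D7 and D8 alone, and without D7b or D7c or D8a or D8b. Its fetal form Tnni1 had 372, 285 and 197 CPM at D7 and 499.9, 422 and 337 CPM at D8 and did not pass (log2 fold change 0.56 ± 0.24, adjusted p = 0.12). Actc1, the cardiac actin, had 416, 307 and 135 CPM at D7 and 857, 594 and 289 CPM at D8 (log2 fold change 1.02 ± 0.50, adjusted p = 0.166). Tnnt2, the cardiac troponin T used to mark cardiomyocytes, had 372, 317 and 184 CPM at D7 and 469, 379 and 226 CPM at D8 (log2 fold change 0.30 ± 0.33, adjusted p = 0.55), so neither passed. Acta1, the skeletal actin, and Tpm2, the beta tropomyosin, fell (-1.01 ± 0.21, adjusted p = 0.00131, and -0.38 ± 0.07, adjusted p = 1.73e-04). Without the robust estimate of dispersion, 5 of the 13 thin filament genes rose in place of 1.

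**Figure D5:**
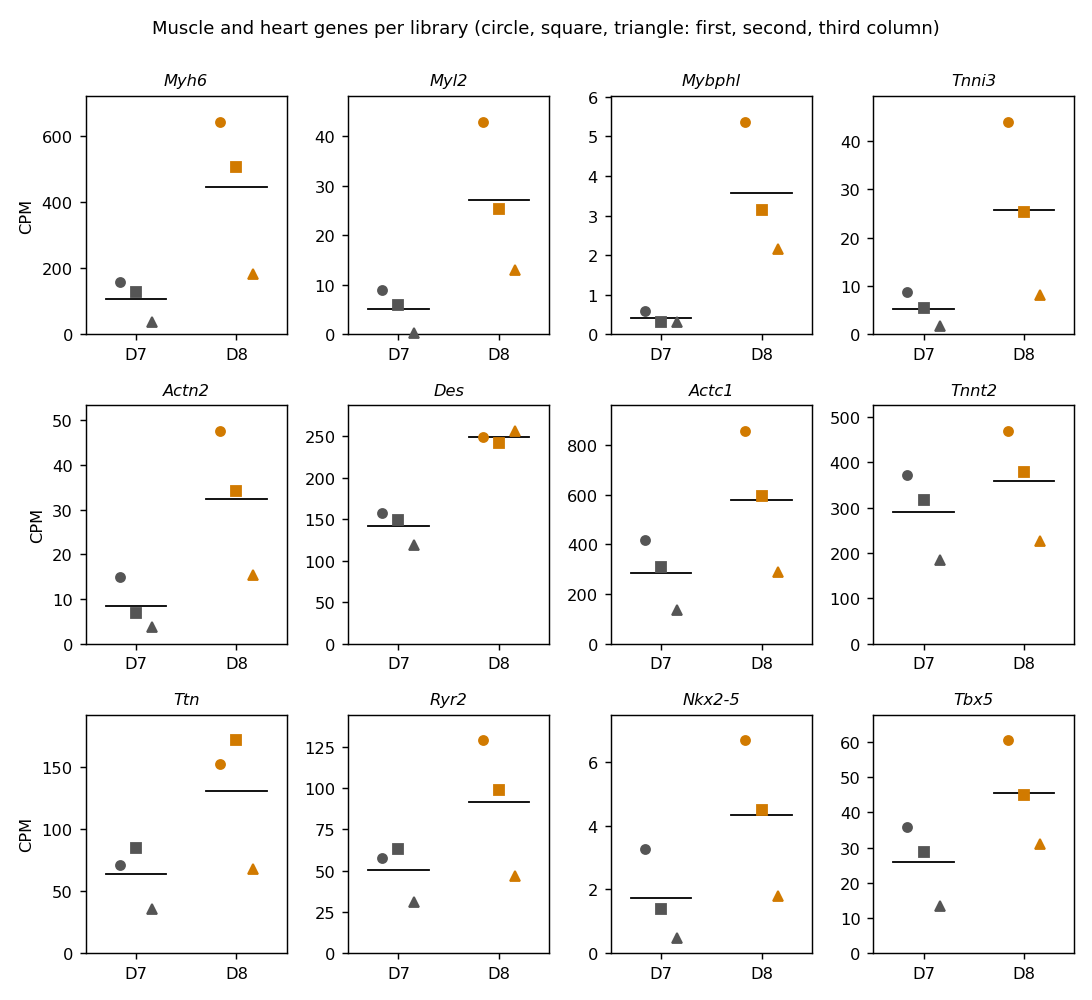
CPM (vertical, from 0) of 12 muscle and heart genes in each D7 and D8 library; circle, square and triangle are the libraries a, b and c of a day and the line is the mean. Library c is the lowest of its day in every panel except those of Des at D8, where it is the highest, and of Mybphl at D7, where it is level with library b.

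In the Z disc list 4 of 16 genes (25%) rose and 1 (6.25%) fell, against 12.6% and 11.6% over all genes. The count of rises was 2 without D7c or D8a or D8b, and 7 without D8c. Des, the muscle intermediate filament, had 157, 149 and 119 CPM at D7 and 249, 242 and 257 CPM at D8, with libraries close together on each day (log2 fold change 0.81 ± 0.10, adjusted p = 2.95e-06). Actn2, the cross-linker of thin filaments, had 14.9, 6.94 and 3.72 CPM at D7 and 47.6, 34.2 and 15.4 CPM at D8 (log2 fold change 1.94 ± 0.57, adjusted p = 0.0248), with the same losses of the call as Tnni3. Fhl2, a LIM protein, rose from 4.20 ± 1.91 to 9.63 ± 1.03 CPM (adjusted p = 0.00122). Cryab, a small heat shock protein that protects desmin, fell (-0.45 ± 0.09, adjusted p = 2.90e-04). The stretch-responsive Ankrd1 had 30.5, 33.9 and 26.7 CPM at D7 and 21.6, 22.9 and 22.1 CPM at D8 and did not pass (adjusted p = 0.414).

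Genes of calcium handling and ion channels mostly did not pass. Of 20 calcium handling genes 2 (10%) rose and 1 fell, against 12.6% and 11.6% over all genes. Ryr2, the release channel of the sarcoplasmic reticulum, had 57.6, 63 and 30.7 CPM at D7 and 129, 98.9 and 46.9 CPM at D8 (log2 fold change 0.87 ± 0.44, adjusted p = 0.18). Atp2a2, its pump, went from 639 ± 62 to 705 ± 171 CPM (adjusted p = 0.715). Cacna1h, a T-type calcium channel, had 11.5, 11.1 and 9.77 CPM at D7 and 52.1, 36.3 and 26.2 CPM at D8 and rose (log2 fold change 1.84 ± 0.35, adjusted p = 0.00175), whereas the channel subunit gene Cacna2d1 had 76.5, 81.9 and 105 CPM at D7 and 35.7, 34.7 and 43.3 CPM at D8 and fell (log2 fold change -1.22 ± 0.15, adjusted p = 4.09e-06). Calcium genes that rose numbered 7 without the robust estimate, 6 by DESeq2 and 5 without D8c.

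Of 15 channel and connexin genes 5 (33.3%) rose and 1 (6.67%) fell, against 12.6% and 11.6% over all genes. Hcn4, the pacemaker channel of the sinus node, had 106, 111 and 91.5 CPM at D7 and 179, 165 and 142 CPM at D8 (log2 fold change 0.66 ± 0.14, adjusted p = 0.00319). Kcnj2 and Kcnj5, potassium channels that hold the resting potential, rose by 1.73 ± 0.36 and 1.57 ± 0.51. Gja1, the connexin 43 of ventricular gap junctions, fell, with 439.7, 458 and 470.2 CPM at D7 and 277, 307 and 299 CPM at D8 (log2 fold change -0.63 ± 0.06, adjusted p = 6.52e-09). The count of risen genes was 2 by limma-voom and 3 in the fit of D7 and D8 alone, without D7b or D7c, or without D8a.

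The transcription factors that specify the heart changed little as a list, and of 19 tested 1 (5.26%) rose and 2 (10.5%) fell, against 12.6% and 11.6% over all genes. Tbx5, which patterns the left side of the heart tube (mm10 chromosome 5, 119832668 to 119885219), had 35.7, 28.9 and 13.3 CPM at D7 and 60.6, 44.8 and 31.1 CPM at D8 (log2 fold change 0.82 ± 0.35, adjusted p = 0.113). Nkx2-5, the cardiac homeobox factor (mm10 chromosome 17, 26838664 to 26845009), had 3.28, 1.39 and 0.465 CPM at D7 and 6.68, 4.48 and 1.80 CPM at D8 (log2 fold change 1.34 ± 0.75, adjusted p = 0.216). Gata4 had 455, 428 and 342 CPM at D7 and 537, 451 and 366 CPM at D8 (log2 fold change 0.15 ± 0.14, adjusted p = 0.503). Mef2c had 96, 95.8 and 60.8 CPM at D7 and 116, 106 and 65 CPM at D8 (log2 fold change 0.19 ± 0.27, adjusted p = 0.666). For all 4 library c was the lowest of its day, and the days overlapped. Zfpm2, the GATA cofactor FOG2, had 40.9, 41.7 and 46.2 CPM at D7 and 66.7, 60.1 and 64.8 CPM at D8 and rose (log2 fold change 0.57 ± 0.09, adjusted p = 2.74e-05), and its relative Zfpm1 had 142, 149 and 148 CPM at D7 and 109.7, 101 and 98.2 CPM at D8 and fell (log2 fold change -0.51 ± 0.11, adjusted p = 0.00108). Tbx3, a repressor of chamber genes, had 4.76, 7.41 and 9.46 CPM at D7 and 1.89, 2.32 and 1.62 CPM at D8 (log2 fold change -1.87 ± 0.34, adjusted p = 2.76e-04).

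Chamber markers moved in both directions. Hey1, a repressor downstream of Notch that marks atrial muscle, had 15.2, 9.41 and 6.51 CPM at D7 and 44.2, 36.3 and 25.5 CPM at D8 (log2 fold change 1.77 ± 0.27, adjusted p = 1.00e-04). Its ventricular counterpart Hey2 had 2.38, 2.93 and 5.27 CPM at D7 and 9.29, 8.80 and 7.18 CPM at D8 (log2 fold change 1.26 ± 0.37, adjusted p = 0.0171). Nr2f2, a nuclear receptor of atrial identity, had 110.3, 88.6 and 75.2 CPM at D7 and 176, 153 and 127 CPM at D8 (log2 fold change 0.74 ± 0.14, adjusted p = 6.91e-04). Nppb, the B-type natriuretic peptide, fell from 6.62 ± 0.835 to 2.82 ± 1.15 CPM (adjusted p = 0.0125), and Nppa went from 4.58 ± 0.922 to 4.09 ± 1.59 CPM (adjusted p = 0.729). Hey2 did not pass by limma-voom or without D7a or D7b or D8a, and Nppb not without D7b or D8a or D8b.

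Second heart field genes, which mark the progenitors added to the poles of the heart tube, gave 3 rises (20%) and 2 falls (13.3%) among 15, against 12.6% and 11.6% over all genes. Isl1, its homeobox marker (mm10 chromosome 13, 116298281 to 116309689), had 9.23, 7.25 and 3.26 CPM at D7 and 9.59, 11.3 and 5.57 CPM at D8 (log2 fold change 0.43 ± 0.38, adjusted p = 0.453). Fgf10, a ligand made by these progenitors, had 45.9, 50.5 and 57.8 CPM at D7 and 103, 89 and 89.3 CPM at D8 and rose (log2 fold change 0.87 ± 0.15, adjusted p = 1.57e-04), and Sema3c rose by 0.58 ± 0.20 (adjusted p = 0.0368). Hoxb1, an anterior HOX gene of the posterior second heart field (mm10 chromosome 11, 96365752 to 96368256), fell and had 25.2, 29.2 and 22.2 CPM at D7 and 3.63, 4.31 and 4.31 CPM at D8 (log2 fold change -2.64 ± 0.20, adjusted p = 1.06e-10). In all, 6 of the 10 HOX genes tested (60%) fell and none rose by edgeR's test, among them Hoxb2 from 102 ± 6.43 to 63.2 ± 10.7 CPM (adjusted p = 2.91e-04) and Hoxb5 from 19.6 ± 2.61 to 10.8 ± 0.697 CPM (adjusted p = 7.46e-04).

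Hedgehog readouts were low on both days. Hhip, an antagonist that binds Hedgehog ligands and is a target of the pathway (mm10 chromosome 8, 79965851 to 80058006), had 2.23, 2.93 and 2.64 CPM at D7 and 1.31, 0.664 and 0.539 CPM at D8 and fell (log2 fold change -1.57 ± 0.45, adjusted p = 0.0105). Ptch1, the receptor and a direct GLI target (mm10 chromosome 13, 63508328 to 63573598), had 14.7, 21.3 and 20.8 CPM at D7 and 17.1, 13.4 and 11.5 CPM at D8 (log2 fold change -0.42 ± 0.28, adjusted p = 0.307). Gli1 was under the expression filter with 9 counts over the D7 libraries and 3 over the D8 libraries, a ratio of 0.354 (95% counting interval 0.0617 to 1.42, which covers counting error only). Without D8c Hhip no longer passed.

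Of the 11 tested components of the pathway 2 fell and none rose by edgeR's test, against 11.6% lower over all genes. Gli2, the main activating GLI factor (mm10 chromosome 1, 118834132 to 119053619), had 71.9, 83.9 and 90.5 CPM at D7 and 62.5, 71.4 and 63.8 CPM at D8 (log2 fold change -0.32 ± 0.08, adjusted p = 0.00512). Smo, the signal transducer, had 185, 185 and 181 CPM at D7 and 154, 153 and 158 CPM at D8 (log2 fold change -0.24 ± 0.07, adjusted p = 0.0116). Gli3, the main repressing GLI factor, had 86.5, 119 and 123 CPM at D7 and 95.9, 109.7 and 110.1 CPM at D8 and did not pass (log2 fold change -0.06 ± 0.12, adjusted p = 0.777). The coreceptors Boc, Cdon and Gas1 did not pass either (-0.33, -0.13 and 0.06). Of the ligands, Shh and Dhh had no count and Ihh had 1 count, at D8. Without D7c Gli2 did not pass.

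Heterochronic genes, which time developmental transitions, mostly fell. Lin28a, an RNA-binding protein that holds back the let-7 microRNA (mm10 chromosome 4, 134003330 to 134018841), had 189, 219 and 178 CPM at D7 and 61.9, 77.3 and 70.9 CPM at D8 (log2 fold change -1.48 ± 0.08, adjusted p = 1.88e-14). Its paralog Lin28b had 74, 80.9 and 81.2 CPM at D7 and 38.5, 55.8 and 53.5 CPM at D8 (log2 fold change -0.68 ± 0.10, adjusted p = 7.01e-06). Trim71, a let-7 target and translational repressor, had 38.6, 51.2 and 56.6 CPM at D7 and 17.1, 30.2 and 20.7 CPM at D8 (log2 fold change -1.11 ± 0.15, adjusted p = 1.19e-05). Days did not overlap for these 3. Igf2bp1, an mRNA-binding let-7 target, fell by 0.27 on the log2 scale (adjusted p = 0.00314), and Igf2bp2 and Igf2bp3 did not pass (-0.05 and -0.04). Hmga2, a chromatin protein and let-7 target, went the other way, with 140.4, 136 and 133 CPM at D7 and 167, 165 and 161 CPM at D8 (log2 fold change 0.27 ± 0.07, adjusted p = 0.00286). Lin28a had 1021 CPM at D5 and 526 at D6, and its change from D7 to D8 minus that from D5 to D6 was -0.53 ± 0.10, adjusted p = 3.78e-04 by edgeR.

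Falls among genes of cell division were small. In the mitosis list 11 of 22 (50%) fell and none rose by edgeR's test, with a median of -0.20, and 5 fell without D8a. Foxm1, the transcription factor of the G2 and M phases, had 119, 139.8 and 149 CPM at D7 and 92.4, 97.6 and 100.4 CPM at D8 (log2 fold change -0.49 ± 0.09, adjusted p = 1.31e-04). Ccnb1, the mitotic cyclin, had 68.8, 69.9 and 66 CPM at D7 and 51.7, 54.3 and 52.6 CPM at D8 (log2 fold change -0.37 ± 0.09, adjusted p = 0.00223). Bub1, a spindle checkpoint kinase, had 149, 163 and 175 CPM at D7 and 122, 146 and 125 CPM at D8 (log2 fold change -0.31 ± 0.07, adjusted p = 0.00183). Mki67, a common mark of cycling cells, had 367, 489.9 and 482 CPM at D7 and 459, 542 and 488 CPM at D8 and did not pass (log2 fold change 0.15 ± 0.10, adjusted p = 0.27). Of 22 DNA replication genes 5 (22.7%) fell and 1 (4.55%) rose, against 11.6% and 12.6% over all genes. Pcna, the sliding clamp, had 80.9, 80.9 and 69.9 CPM at D7 and 64, 68 and 47.9 CPM at D8 (log2 fold change -0.36 ± 0.10, adjusted p = 0.00742), and Lig1 and Cdc45 fell by 0.35 and 0.48 on the log2 scale, whereas Tk1, a thymidine kinase, rose (0.39 ± 0.13, adjusted p = 0.0232). Mcm3 and Mcm7, of the replicative helicase, did not pass (-0.02 and 0.00). Without D8c neither Pcna nor Tk1 passed, and Tk1 also not without D7b or D7c.

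In the list of cell cycle brakes and D cyclins 4 of 13 (30.8%) rose, against 12.6% over all genes, and all of them were brakes. Cdkn1c, the imprinted inhibitor p57 (mm10 chromosome 7, 143458339 to 143461050), had 140.3, 112 and 123 CPM at D7 and 199, 202 and 214 CPM at D8 (log2 fold change 0.71 ± 0.12, adjusted p = 2.65e-04). The pocket protein genes Rbl2 and Rb1 rose by 0.87 ± 0.14 and 0.45 ± 0.14, Rb1 not without D7a or D7b or D8a. Cdkn1a, the inhibitor p21, rose with overlapping libraries (0.47 ± 0.15, adjusted p = 0.028). The count was 2 without D7a or D7b, and Cdkn1a also did not pass without the filter, in the fit of D7 and D8 alone, or without D8b or D8c. Among imprinted and growth genes 8 of 12 (66.7%) rose, 5 without D7a. Igf2, the fetal growth factor and the largest gain in CPM of the comparison, had 12549, 11943 and 12717 CPM at D7 and 18016, 17237 and 18260.2 CPM at D8 (log2 fold change 0.52 ± 0.05, adjusted p = 1.55e-08). Dlk1, H19 and Igf2r rose by 0.66 ± 0.09, 0.24 ± 0.05 and 0.44 ± 0.06, and Igf1r, the receptor, fell (-0.23 ± 0.07, adjusted p = 0.0127), except in the fit of D7 and D8 alone and without D7b or D7c or D8a.

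BMP is a growth factor pathway that supports early heart formation. In its list, which holds ligands, a receptor, antagonists and targets, 8 of 15 genes (53.3%) fell and 1 rose. Msx1, a homeobox target, had 16.5, 19.6 and 32.6 CPM at D7 and 4.79, 4.15 and 7.90 CPM at D8 (log2 fold change -2.04 ± 0.41, adjusted p = 0.00235). Id3, an inhibitor of helix-loop-helix factors, had 111, 91.8 and 99.7 CPM at D7 and 62.6, 62.4 and 48.1 CPM at D8 (log2 fold change -0.80 ± 0.17, adjusted p = 0.00252). The inhibitory Smad6 went from 64.7 ± 9.92 to 42.8 ± 2.24 CPM (adjusted p = 0.0127). The secreted antagonist Nog fell too, with 14.1, 15.9 and 22.8 CPM at D7 and 4.65, 5.97 and 7.18 CPM at D8 (log2 fold change -1.58 ± 0.25, adjusted p = 3.13e-05). Bambi, a decoy receptor, rose (0.43 ± 0.11, adjusted p = 0.00553). The ligands Bmp2, Bmp4 and Bmp7 did not pass (-0.25, -0.20 and -0.15). The fallen genes numbered 5 with upper quartile factors, without the filter, and without D7b or D8c, and 3 without D7c or D8a.

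The list of Wnt signalling through beta-catenin holds readouts, effectors and antagonists. Of its 13 genes tested 4 (30.8%) fell and 3 (23.1%) rose, against 11.6% and 12.6% over all genes. Axin2, the feedback inhibitor, had 18.8, 15.3 and 17.2 CPM at D7 and 9.59, 10.1 and 10.2 CPM at D8 (log2 fold change -0.78 ± 0.19, adjusted p = 0.00259). Lef1, a nuclear effector, had 5.36, 5.71 and 8.68 CPM at D7 and 1.89, 3.49 and 3.05 CPM at D8 (log2 fold change -1.24 ± 0.26, adjusted p = 5.70e-04). Apcdd1 and Tcf7 also fell (-0.65 ± 0.15, adjusted p = 0.00184, and -0.39 ± 0.13, adjusted p = 0.031). Sfrp5, a secreted Wnt binder of the venous pole, had 91.9, 54.6 and 37.7 CPM at D7 and 182, 136 and 106 CPM at D8 and rose (log2 fold change 1.20 ± 0.29, adjusted p = 0.00899), as did the antagonist Dkk1 from 3.47 ± 1.28 to 9.45 ± 4.78 CPM (adjusted p = 9.25e-04) and Lgr5, which had no count at D7 and 7 at D8 (adjusted p = 0.0319). Lgr5 passed only with all 3 D7 libraries and D8a in the fit, and Sfrp5 did not pass in the fit of D7 and D8 alone.

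Feedback genes of FGF signalling rose in 5 of 10 (50%) and none fell by edgeR's test. Dusp6, the ERK phosphatase, had 21.7, 20.5 and 11 CPM at D7 and 35.1, 50.9 and 25.3 CPM at D8 (log2 fold change 1.06 ± 0.33, adjusted p = 0.0341). Spry2, a Sprouty inhibitor, had 23.5, 24.1 and 17.2 CPM at D7 and 38.5, 33.5 and 30.2 CPM at D8 (log2 fold change 0.66 ± 0.18, adjusted p = 0.0106). Spred1, Spry1 and Spred2 rose by 0.43 ± 0.10, 0.80 ± 0.19 and 0.61 ± 0.18. The count was 3 in the fit of D7 and D8 alone and without D8b, and 2 without D7c or D8a. Egr1, Junb and Ier3, of the 12 immediate early genes tested, rose (1.55 ± 0.34, 1.95 ± 0.48 and 0.73 ± 0.23), Ier3 not by limma-voom, in the fit of D7 and D8 alone, or without D7a or D7b or D8a. Of 9 Notch genes 4 (44.4%) rose, against 12.6% over all genes. Besides Hey1 and Hey2 these were the ligand Jag1, with 41.1, 46.6 and 29.9 CPM at D7 and 66.1, 83.5 and 86.7 CPM at D8 (log2 fold change 1.00 ± 0.17, adjusted p = 3.45e-04), and the receptor Notch1, with 9.08, 11.9 and 15.8 CPM at D7 and 24.4, 29.5 and 16.7 CPM at D8 (log2 fold change 0.95 ± 0.19, adjusted p = 5.24e-04).

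Markers of other cell types were mixed or near absent. Of 15 endothelial genes 1 (6.67%) rose and 2 (13.3%) fell, against 12.6% and 11.6% over all genes. Eng rose (0.84 ± 0.20, adjusted p = 0.00216), and Cldn5 (-1.05 ± 0.35, adjusted p = 0.0276) and Tie1 (-1.04 ± 0.35, adjusted p = 0.0335) fell. The calls of Cldn5 and Tie1 were lost without D7a or D7c or D8a or D8b, and that of Tie1 also by limma-voom. The summed level of 5 endothelial markers was 335 to 467 CPM at D7 and 275 to 367 at D8. Sums over the pluripotency markers that passed the filter (1 of 4) were at most 0.154 CPM at D7 and 0.359 at D8. Those of endoderm (3 of 5) were 1.49 to 3.1 and 2.66 to 3.49, and of blood (2 of 5) 2.38 to 4.34 and 1.49 to 7.18. Markers under the filter are not in these sums. Of blood, Hba-x had 15 counts at D7 and 51 at D8, Hbb-y 17 and 48, and Gata1 1 and 0. Of pluripotency, Nanog had 7 and 6, Zfp42 6 and 5, and Esrrb 2 and 2. Of endoderm, Foxa2 had 2 and 0, and Ttr 0 and 3. Runx1, a blood and mesenchyme factor, rose from 4.27 ± 0.222 to 12.4 ± 1.65 CPM (1.54, adjusted p = 6.35e-05). In the neural list Ncam1, an adhesion molecule also made by heart cells, and Tubb3 rose (0.91 ± 0.12 and 1.74 ± 0.38), and the other 4 tested did not pass. In the skeletal muscle list Actn3 rose (log2 fold change 2.25), and Myh8, the only other gene tested, had no count on either day. None of 6 MHC class I genes passed by edgeR's test. Of 12 p53 targets Cdkn1a rose and Aen fell (8.33% each way, against 12.6% and 11.6% over all genes).

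Several of the largest rises stood outside the lists. Angptl7, a secreted angiopoietin-like protein (mm10 chromosome 4, 148495183 to 148500460), had 1.34, 2.47 and 0.31 CPM at D7 and 54.6, 43.1 and 33.8 CPM at D8 (log2 fold change 4.99 ± 0.45, adjusted p = 4.67e-05). Pnoc, the precursor of the peptide nociceptin, had 1.94, 1.54 and 0.31 CPM at D7 and 28.8, 16.6 and 21.9 CPM at D8 (log2 fold change 4.12 ± 0.36, adjusted p = 3.02e-09). Socs2, a brake on growth hormone signalling, had 3.72, 3.09 and 2.33 CPM at D7 and 27.3, 22.6 and 19.2 CPM at D8 (log2 fold change 2.91 ± 0.22, adjusted p = 4.84e-11). Tshz2, a zinc finger factor, had 6.70, 5.71 and 6.05 CPM at D7 and 38.3, 42 and 51.4 CPM at D8 (log2 fold change 2.83 ± 0.17, adjusted p = 7.51e-13). Sardh, a mitochondrial enzyme of sarcosine breakdown, had 3.42, 1.39 and 3.72 CPM at D7 and 21.8, 18.1 and 16.5 CPM at D8 (log2 fold change 2.72 ± 0.21, adjusted p = 7.28e-11). Ccdc3 and Fam40b rose by 2.86 ± 0.33 and 2.72 ± 0.27. On each of these genes every D8 library exceeded every D7 library, which the naming rule required.

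Among the falls outside the lists, P2rx3, an ATP-gated ion channel, had 13, 10.8 and 12.4 CPM at D7 and 1.45, 2.32 and 1.62 CPM at D8 (log2 fold change -2.74 ± 0.30, adjusted p = 4.06e-08). Hsp90ab1, a cytosolic chaperone and the largest loss in CPM, had 5071, 5341 and 5438 CPM at D7 and 3585, 3722 and 3897 CPM at D8 (log2 fold change -0.50 ± 0.05, adjusted p = 2.88e-08). Eef2, of translation elongation, and the tubulin gene Tubb5 fell by 0.23 and 0.27 on the log2 scale (adjusted p = 0.00131 and 2.20e-04). Of the genes that changed, 14 had no count on one of the days. Clca1, which regulates chloride channels, had no count at D7 and 95 at D8. With 3 counts put in for the D7 group as the floor, it was at least 33.7-fold higher (adjusted p = 3.24e-10). Nrgn, a calmodulin-binding protein, had 0 and 58 counts and was at least 20.6-fold higher (adjusted p = 1.32e-06), and the potassium channel gene Kcng2 had 0 and 16 and was at least 5.67-fold higher (adjusted p = 0.00272). Vrtn, named for its part in vertebra number, went from 21 counts to 0, at least 6.58-fold lower by the same floor (adjusted p = 4.13e-04).

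The earlier one-day step from D5 to D6 was set against this one, since the steps share no library. The change from D7 to D8 differed from that from D5 to D6 for 2639 genes (20.1%) by the edgeR test of the difference, being more positive for 1145 (8.73%) and more negative for 1494 (11.4%). In the amino acid and ATF4 list the difference was called more negative for 8 of 18 genes and more positive for 1. In the cholesterol list it was more negative for 12 of 17, and in the glycolysis list more positive for 11 of 20. For matrix genes the direction was mixed, with 3 of 17 more positive and 6 more negative. In the thick filament list the difference was called for none of the 14 genes by edgeR, and 1 reached an unadjusted p under 0.05.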

How the data were processed

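RNA was extracted from cultures of differentiating mouse embryonic stem cells, and TruSeq v2 libraries of poly(A) RNA were sequenced as single-end reads of 50 bases, per the labels' protocols. STAR and mm10 are named in the submitters' processing notes. The counting tool, its use of strand, the annotation and all versions are not given in the sources used here. Values are whole-number counts per gene symbol, deposited by the authors in 1 table. Its columns name a day, so libraries were grouped by day, and 3 columns that match no sample were not used.

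Counts of all 18 libraries were fitted with edgeR 4.0.16 (R 4.3.3) by day: TMM factors, filterByExpr with a minimum count of 10, a robust quasi-likelihood test of D8 against D7, and Benjamini-Hochberg adjustment over 13116 genes with a threshold of 0.05. The spread thus rests on 12 residual degrees of freedom. CPM are computed on the TMM-scaled totals, and an SE is the log2 fold change over the square root of the test's F. The labels do not state a test, so this choice is not the authors'. The change from D7 to D8 minus the change from D5 to D6 was a contrast of the same fit. On simulated counts with 200 of 13116 genes changed, the D8 against D7 test recovered 61.2% at 1.5-fold, 86.6% at 2-fold and 95.5% at 4-fold. Of its calls there 4.71% were false. The simulated libraries were independent and fewer genes changed than the 24.2% called in the data, so these shares may not hold for the data. Libraries held 5583288 to 6769054 counts on the days compared, so genes near 1 CPM rest on few counts. Alternatives were other scaling factors (RLE, upper quartile), other filters, no robust estimate, limma-voom (limma 3.58.1), DESeq2 1.42.0, D7 and D8 alone, a test against a 1.5-fold change, and leaving out each library. Promoter windows of RefSeq (GRCm38.p6) were searched in Python 3.11.15, and gene positions and overlaps are of the GENCODE annotation of mm10.

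The members and the 43 gene lists were chosen with earlier results of these data known. Genes named by rule were the 12 largest rises and falls among changed genes whose log2 CPM averaged 2 or more with no overlap between the days, the 5 largest gains and losses in CPM, up to 4 genes of smallest p in each list with changed members that went against its majority, a set of heart and Hedgehog genes, 4 changed genes with no count on one day, and 4 genes each way for the difference from the earlier step. Other list members were named after their values were seen, and a few members that the lists count are not reported here by name. Counts of 1 to 3 were compared as a ratio with a 95% binomial interval.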

Additional observations from a re-analysis of the deposited data

Results flagged for a closer look

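For 8 genes, the 4 most extreme each way by the naming rule, the change from D7 to D8 differed from the change from D5 to D6 by edgeR's test of the difference, given here on the log2 scale as the later change minus the earlier one. Ptger3, a prostaglandin receptor, had a difference of -5.99 ± 0.60, adjusted p = 1.39e-08. Enpp1, which makes pyrophosphate outside the cell, had no count at D5 and means of 1.40, 9.28 and 18.2 CPM from D6 to D8, so its fitted difference of -5.18 (adjusted p = 0.0024) depends on the prior count and is given without an error. Tie1, an endothelial receptor, had a difference of -4.92 ± 0.61, adjusted p = 4.80e-06, with means of 0.66, 9.94, 10.2 and 5.04 CPM from D5 to D8. Eef1a2, a translation elongation factor of muscle and neurons, had a difference of -4.66 ± 0.50, adjusted p = 8.98e-06. In the other direction Adcyap1r1, the receptor of the peptide PACAP, had 4.06 ± 0.34, adjusted p = 9.14e-09. Car12, a carbonic anhydrase, had 3.94 ± 0.51, adjusted p = 5.48e-06. Fam198b had 3.77 ± 0.34, adjusted p = 2.99e-08. Bgn, the proteoglycan biglycan, had 3.73 ± 0.27, adjusted p = 8.12e-11, with means of 13.4, 3.73, 2.69 and 9.91 CPM from D5 to D8.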

How the results depend on the processing

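Against a fold of at least 1.5, 483 genes changed, 397 higher and 86 lower, and calls over all list entries went from 209 to 64. Under every other alternative the counts for all genes stayed within 1.5 times, with 1267 to 1509 higher and 1059 to 1452 lower when 1 library was left out, and 1431 and 1239 with D7 and D8 alone. Upper quartile factors gave 1819 higher and 1316 lower, the largest shift in that split. None of the 168 changed genes named by rule reversed under any alternative, but 93 of them did not pass against a fold of 1.5, 7 to 20 with 1 library left out (20 without D8a), and 10 each by limma-voom and with D7 and D8 alone. Genes that did not pass did reverse: Lmo2 was 0.21 by limma-voom and -0.48 to 0.28 with 1 library left out, Kdr -0.076 to 0.40, Hbb-bh1 -0.67 to 1.00, Gli3 -0.20 to 0.035, Mef2c -0.00017 to 0.39 and Myh7 -0.14 to 0.40. The cause was not tested. No paired analysis was possible because the columns carry no replicate number.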
